A study of Mus musculus with 282 samples.

Results

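The transcripts of 35 lysosomal genes, namely luminal enzymes, membrane proteins and regulators of the organelle, were measured in single mouse hematopoietic stem cells (HSCs). The genes were taken by symbol from a list that covers 11 proteases, 5 membrane proteins, 7 glycosidases and lipases, 4 cofactor and lipid transfer proteins, 4 channel and regulator genes and 4 genes of the proton pump. All 35 were found among the 49671 Ensembl genes of the deposited table. No measured value enters the rule that defines the list.

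The cells came from the bone marrow of mice homozygous for a reverse tetracycline transactivator at Rosa26 (rtTA/rtTA) and for a tetracycline-responsive histone H2B-GFP transgene at Col1a1 (H2B-GFP/H2B-GFP), and none had received doxycycline, per the labels. In 2 experiments, 6 mice aged 12 to 22 weeks were used, per the series' design text, and single LSK CD48-/loCD150+ cells (LSK marks cells with Sca-1 and Kit that lack lineage markers) were studied. There was 1 untreated group and no second condition. The labels carry a library number that begins with 29 or 32 and an HSC code, and their combinations gave 6 sets, 2 of series L29 (HSC-3 and HSC-4) and 4 of series L32 (HSC-2 to HSC-5). Wherever 6 set values are listed, the L29 sets come first and codes ascend within a series. The labels do not tie a cell to a mouse, so a set need not be an animal, and any spread or p-value over sets measures the spread between these sets only, which may be technical.

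Lysosomes are acidic organelles in which proteases, glycosidases and lipases break down material delivered by endocytosis and autophagy. A vacuolar ATPase pumps protons into the lumen, heavily glycosylated membrane proteins such as LAMP1 and LAMP2 line the membrane, and the transcription factors TFEB, TFE3 and MITF can bind E-box sequences near many lysosomal genes. In HSCs, lysosomes are known for their part in quiescence, and lysosomal content and activity are used to separate quiescent from activated stem cells.

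Of 282 wells, 232 held at least 100000 gene counts and 1000 genes and were kept, with 46, 43, 22, 44, 38 and 39 cells in the 6 sets. Kept cells had 116009 to 1680714 gene counts (median 280096). Cells of L29 HSC-4 were poorer, with 4151 genes at the median (5126 to 5686 elsewhere) and 6.66% mitochondrial reads (3.28% to 3.73% elsewhere). A further 38 wells, 22 with code HSC-2 and 16 with code HSC-3 in series L32, had fewer gene counts than spike-in counts and serve here as near-empty wells. All 12 HSC markers (Kit, Angpt1, Meis1 and others) were found at 10 CPM (gene counts scaled to 1 common total per cell) in at least 10% of kept cells. Of 16 macrophage and monocyte markers only Vcam1 reached that level (40.9% of cells), and 8, among them Adgre1, Mrc1 and C1qa, reached 10 CPM in 0 kept cells, a count that allows up to 3 of 232 cells. The summed level of those 16 markers lay between 21.8 and 61.1 CPM over the sets and reached 441 CPM in the near-empty wells, Vcam1 alone giving 345 CPM, so those wells do not hold only RNA like that of the kept cells. Their part in the lysosomal levels was not tested.

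Lysosomal transcripts were present in nearly every HSC but were spread thinly. Detection in a cell means 10 CPM or more, or 2.8 reads in the median cell. The median cell held 15 of the 35 transcripts (range 0 to 28), and 8 of 232 cells held fewer than 5. Their summed level had a median of 5119 CPM per cell (range 7.30 to 11620), and the set means averaged 5042 ± 575 CPM (SD, n = 6 sets), or 0.443% to 0.590% of the gene reads of a set. In the near-empty wells the summed level was 1595 CPM, against 5296 CPM in kept cells of those sets. There 4 of the 35 genes (Ctsz, Lgmn, Tfeb and Mitf) were higher than in kept cells. So were 2063 of the 9689 genes detected in at least 10% of kept cells, a limit that only Ctsz of these 4 passed. The near-empty levels of these 4 rest on 208, 7, 5 and 4 reads. The number of lysosomal genes found in a cell followed the number of all genes found, with a Spearman rho of 0.676 over 232 cells that share libraries and differ in depth.

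Of the 35 genes, 10 were detected in at least 50% of kept cells, 22 in 10.3% to 49.1%, and 3 (Lgmn, Tfeb and Mitf) in under 10%. The 32 genes at 10% or more are the ones used for co-variation, with the 9689 genes of the table that pass the same limit as background. Of those 9689 genes, 2126 (21.9%) were detected in at least 50% of kept cells, against 10 of the 32. Npc1 and Tfe3, both at 10.3%, lay just inside the limit of 10%, and Tfeb lay outside it at 4.31%. Without L29 HSC-4, 15 genes were detected in at least 50% of cells, the additions being Ctsa, Ctsc, Ctsz, Hexa and Psap. The share of all genes without that set is not given here. L29 HSC-4 had the lowest share of cells for 23 of the 32 genes but the lowest mean CPM for only 15. Per kilobase of transcript, the level of the median member lay at the percentile 79.1 of all genes past the limit.

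**Figure D1:**
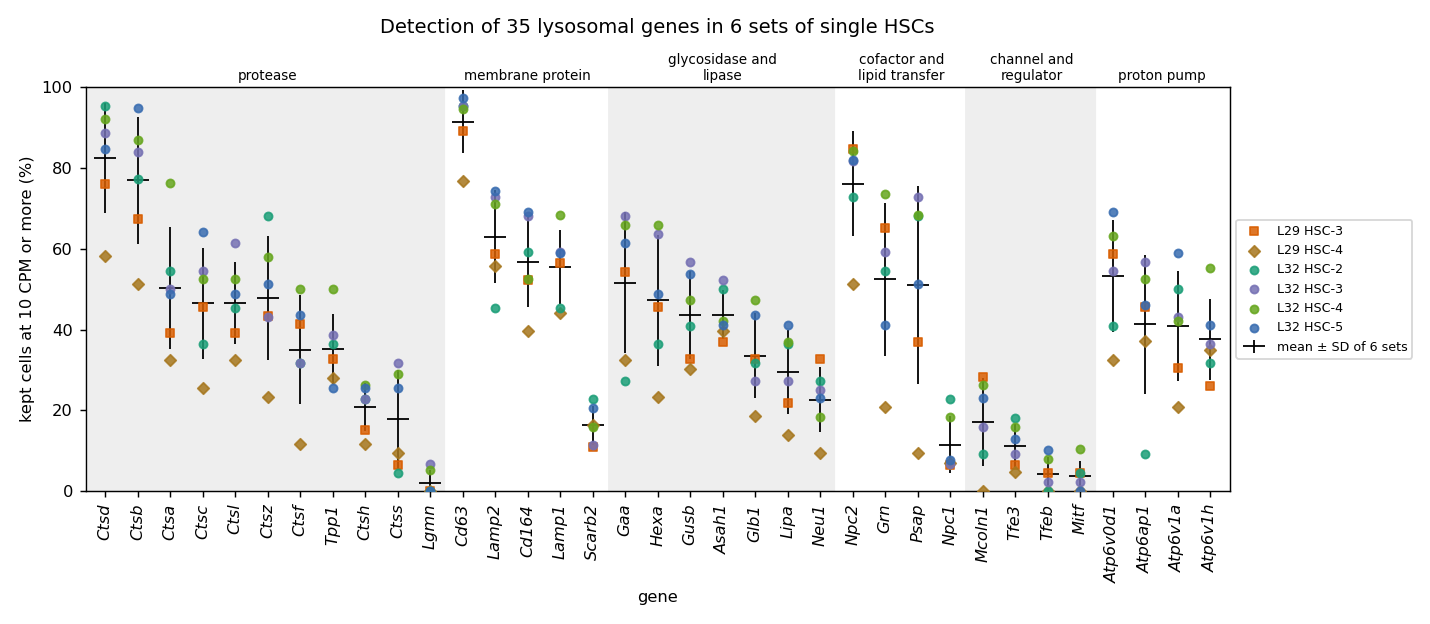
Share of kept cells in which each of the 35 lysosomal genes reached 10 CPM (vertical axis, percent), grouped by role, with 1 symbol per set and the mean ± SD of 6 sets as bars. Cd63 lies at the top of every set (76.7% to 97.4%), level with Ctsd in L32 HSC-2. The regulators Tfeb and Mitf lie at 0% to 10.5%, and L29 HSC-4 (brown diamonds) is the lowest set for most genes.

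Among the membrane proteins, Cd63 was the most widely detected of the 35 genes. Cd63 (ENSMUSG00000025351, chr10:128908919-128912816 in mm10), a tetraspanin of late endosomes and lysosomes, was detected in 211 of 232 cells, a share of 90.9% (exact 95% interval 86.5% to 94.3%). Its mean level in the 6 sets was 287, 372, 344, 338, 335 and 407 CPM, so no set lay far from the rest. Lamp2 (chrX:38401357-38456454), whose A isoform is a receptor of chaperone-mediated autophagy, was detected in 64.2% of cells, with 238, 430, 280, 363, 328 and 311 CPM. Lamp1 (chr8:13159161-13175338), a major glycoprotein of the lysosomal membrane, was detected in 56.0% of cells, with 215, 248, 121, 206, 180 and 194 CPM. Both were highest in L29 HSC-4, where fewer genes were found per cell, and Lamp1 was lowest in L32 HSC-2. Cd164 (chr10:41519414-41531048), a sialomucin also known as endolyn, was detected in 56.5% of cells, with 223, 190, 397, 339, 284 and 350 CPM, and every L32 set lay above both L29 sets. Scarb2, the receptor that carries glucocerebrosidase to the lysosome, was the rarest of the 5 at 15.5% of cells and 36.7 ± 16.0 CPM (SD, n = 6 sets). On the scale of CPM per kilobase of transcript (RPKM) Cd63 stood at 337 ± 39.1, Lamp1 at 72.5 ± 15.8, Cd164 at 66.8 ± 17.9, Lamp2 at 34.0 ± 6.98 and Scarb2 at 5.83 ± 2.55 (SD, n = 6 sets). Cd63 and Scarb2 were apart from the others by more than the spread of the sets, whereas Lamp1 and Cd164 were not apart from each other.

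The proteases were led by Ctsd and Ctsb. Ctsd (chr7:142375911-142388038), the aspartic protease cathepsin D, was detected in 81.0% of cells (interval 75.4% to 85.9%), with 247, 205, 282, 247, 278 and 275 CPM in the 6 sets. Its sets lay close together. Ctsb (chr14:63122462-63145919), the cysteine protease cathepsin B, was detected in 76.3% of cells (interval 70.3% to 81.6%), with 229, 312, 385, 384, 380 and 548 CPM, and was highest in L32 HSC-5. Ctsb overlaps Fdft1 on the opposite strand (54.6 CPM over kept cells), and the sources used here do not say whether the counting used strand, so part of its reads is uncertain. In the near-empty wells Ctsb reached 198 CPM, against 384 CPM in kept cells of those sets, while Ctsd reached 22.7 against 264 CPM. The other 9 proteases were found in 2.16% to 49.1% of cells. Ctsa, a carboxypeptidase that also shields NEU1 and GLB1 from degradation, was detected in 49.1%, and Ctsc, the dipeptidyl peptidase that activates granule serine proteases, in 47.0%. Ctsl was detected in 46.6% and Ctsz in 45.7%, but Ctsz overlaps Nelfcd and its level in near-empty wells (337 CPM) was above that in the kept cells of those sets (121 CPM). Ctss, a cathepsin of antigen presentation, was detected in 25.6% to 31.8% of cells in 3 of the L32 sets and in 4.55% to 9.30% in the other 3 sets, L32 HSC-2 included. Lgmn, the asparaginyl endopeptidase abundant in macrophages, was detected in 5 of 232 cells (interval 0.703% to 4.96%).

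Of the glycosidases and lipases, only Gaa was detected in more than 50% of cells. Gaa (chr11:119267887-119285454), the acid alpha-glucosidase that degrades glycogen, was detected in 53.4% of cells, with 108, 187, 116, 248, 276 and 226 CPM. L29 HSC-3 and L32 HSC-2 were its low sets. Hexa, the alpha subunit of beta-hexosaminidase, was detected in 47.8% of cells, Gusb (beta-glucuronidase) in 43.5%, Asah1 (acid ceramidase) in 43.1%, Glb1 (acid beta-galactosidase) in 33.2%, Lipa (the acid lipase of cholesteryl esters) in 28.4% and Neu1 (a sialidase) in 22.4%. Of these 7 genes Asah1 varied least over the sets, at 37.0% to 52.3% of cells, and Hexa ranged from 23.3% to 65.8%.

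Among the cofactors and lipid transfer proteins, Npc2 and Npc1, which act in sequence to export cholesterol, differed most. Npc2 (chr12:84754560-84773112) was detected in 76.3% of cells, with 353, 296, 233, 231, 347 and 326 CPM, and Npc1 in 10.3%, with a mean of 16.7 ± 11.9 CPM (SD, n = 6 sets). Npc2 stood at 91.4 ± 16.8 RPKM and Npc1 at 1.55 ± 1.11 RPKM (SD, n = 6 sets). Npc1 overlaps Rmc1, which had the higher level (48.4 against 14.5 CPM over kept cells), so the reads given to Npc1 are uncertain. Grn (chr11:102430315-102437048), the progranulin gene, was detected in 52.2% of cells, with 271, 139, 231, 285, 246 and 208 CPM. Psap, which encodes the precursor of the saposins, was detected in 49.1% of cells with 102, 32.8, 274, 249, 192 and 250 CPM. Its share of cells varied most of the 35 genes over the sets, from 9.30% in L29 HSC-4 to 72.7% in L32 HSC-3 (mean 51.1% ± 24.5, SD, n = 6 sets).

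The proton pump genes were detected in 37.5% to 53.9% of cells. Atp6v0d1 (chr8:105524465-105566047), the d subunit that joins the membrane sector to the catalytic sector, was detected in 53.9% of cells. Its CPM was low, at 75.7, 51.3, 56.7, 64.8, 112 and 78.1 in the 6 sets. Per kilobase Atp6v0d1 stood at 40.8 ± 12.1 RPKM (SD, n = 6 sets), and its level over kept cells lay at the percentile 79.2 of all genes past the limit. Atp6ap1, an accessory subunit, was detected in 44.0%, Atp6v1a, the catalytic A subunit, in 39.7%, and Atp6v1h, a regulatory subunit, in 37.5%. Atp6ap1 had 14.5 CPM in L32 HSC-2 and 157 to 244 CPM in the other 5 sets.

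The regulators were the least detected role. Mcoln1, the calcium channel TRPML1 of the lysosomal membrane, was detected in 17.7% of cells, with 103, 0.0805, 25.6, 44.5, 35.5 and 88.4 CPM, and in 0 of the 43 cells of L29 HSC-4. Tfe3 was detected in 24 of 232 cells (10.3%, interval 6.74% to 15.0%), with 1.74, 5.67, 28.9, 17.1, 35.9 and 34.5 CPM. Tfeb was detected in 10 cells (4.31%, interval 2.09% to 7.78%), with 6.67, 0.355, 0.120, 1.08, 8.60 and 10.5 CPM. Mitf was detected in 8 cells (3.45%, interval 1.5% to 6.68%), with 7.71, 0.183, 14.5, 1.01, 7.5 and 0 CPM. The 3 transcription factors lay between 0.804 and 2.23 RPKM, below every other gene of the list except Npc1 (1.55 RPKM) and Lgmn (2.00 RPKM). Tfeb and Mitf were higher in near-empty wells (8.11 and 6.49 CPM) than in the kept cells of those sets (0.287 and 4.51 CPM). The near-empty values rest on 5 and 4 reads. Whether cells without detected Tfeb or Mitf lack these transcripts was not tested.

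**Figure D2:**
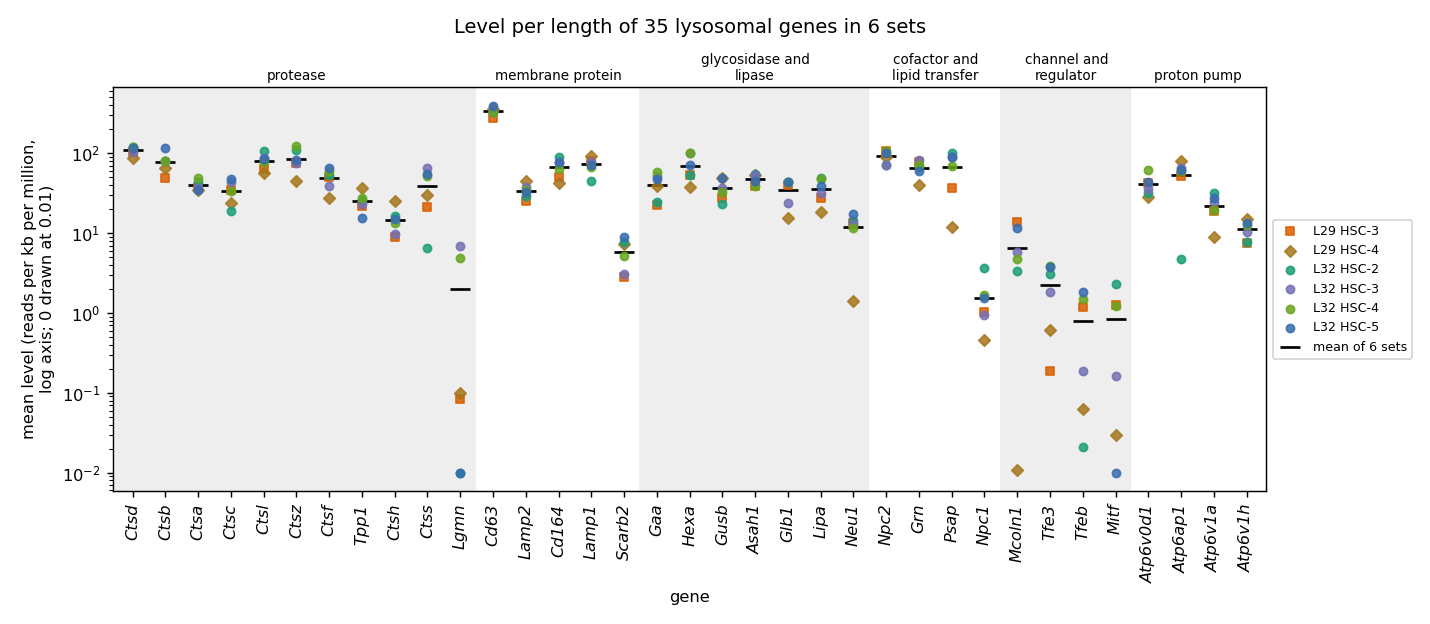
Mean level of each lysosomal gene per set in RPKM on a log axis, grouped by role, with 1 symbol per set and a bar at the mean of 6 sets. Cd63 lies highest at 337, and Tfeb, Mitf and Tfe3 lie at 0.804 to 2.23 with sets spread over more than 1 decade.

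Detection at a given level differed between members. In cells where a gene was found, its median level lay between 75.9 CPM (Mitf) and 468 CPM (Cd164). Atp6v0d1, Cd63 and Ctsd (1793, 1031 and 2351 bases long) were found in more cells than the median gene of like CPM. Cd164, Lamp2 and Ctsc (4449, 9552 and 5808 bases) were found in fewer. CPM is not divided by length here, and the part of length in this contrast was not tested. The squared coefficient of variation across the cells of a set was taken relative to a smoothed trend on the mean level. It is not independent of the share of cells in which a gene is found. Ctsd lay below the trend in 5 of 6 sets and Cd164 above it in 5 of 6. Cd63 and Atp6v0d1 lay below the trend in 6 of 6 sets (2 of 32 genes, against 20.7% of all genes). Above it in 6 of 6 sets lay Glb1, Ctsh, Ctsc, Atp6ap1, Psap, Grn, Asah1, Lipa, Tpp1, Lamp2 and Tfe3 (11 of 32, or 34.4%, against 17.8% of all genes). With cells thinned to 100000 counts, 7 genes lay above it, and without L32 HSC-4, where 5 sets must share the sign, 18 did. The shares of all genes in these changed settings are not given here, so neither count has a background.

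**Figure D3:**
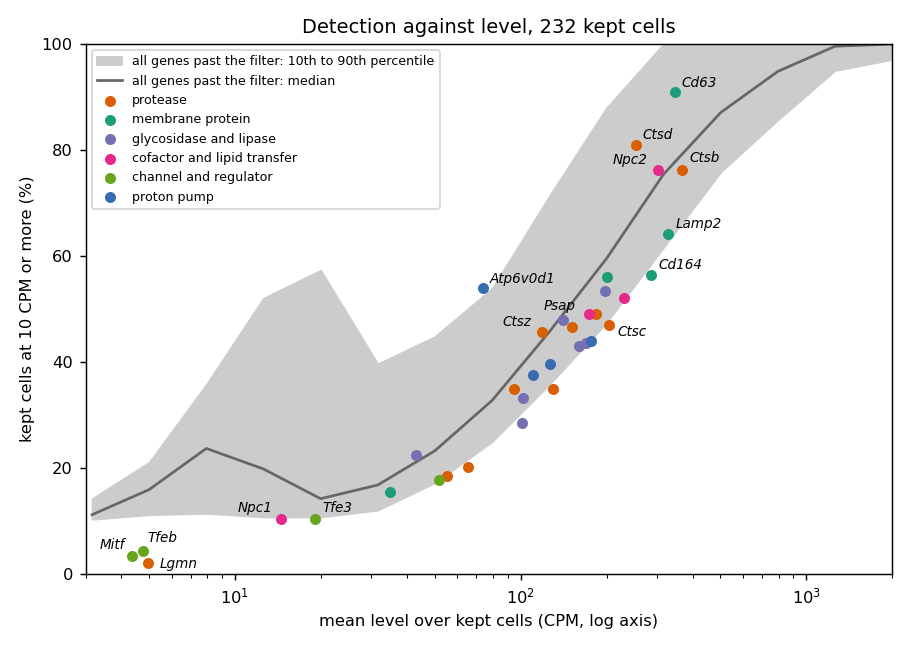
Share of kept cells with each lysosomal gene (percent) against its mean level over kept cells (CPM, log axis), coloured by role, over the median and the central range (percentiles 10 to 90) of all 9689 genes past the limit. Atp6v0d1 lies near the upper edge of the range at 53.9% of cells, and Cd164 lies under its lower edge at 56.5%.

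The 2 library series were compared over 2 set sums of L29 and 4 of L32. HSC code and plate, which the labels also give, define the sets and a covariate and were not compared here. Psap had the smallest p-value of the 35 genes, with 32.8 and 102 CPM in the L29 sets and 192 to 274 CPM in the L32 sets. Its log2 fold change of L32 over L29 was 2.13 ± 0.39 (SE), with an adjusted p of 0.340 in edgeR's quasi-likelihood test with Benjamini-Hochberg adjustment over 16476 genes. None of the 35 genes passed the threshold in either direction, as did 0% of all genes upward and 0% downward. At an unadjusted p under 0.05 edgeR gave 5 of the 35 (Psap, Cd164, Lipa, Tfe3 and Hexa) and 8.70% of all genes. The fold change was above 0 for 29 of the 35 genes with a median of 0.41, against 53.2% of all genes with a median of 0.07. DESeq2 called 410 of the 16476 genes, among them 4 of the list: Psap (log2 fold change 2.15, adjusted p = 9.87e-06), Cd164 (0.69, adjusted p = 0.0110), Tfe3 (3.23, adjusted p = 0.0193) and Lipa (1.2, adjusted p = 0.0309). Without L29 HSC-4 the log2 fold change of Psap was 1.63 (edgeR adjusted p = 0.820), and with cells scaled to equal totals it was 1.84 (adjusted p = 0.287). The labels do not say whether the library series are the 2 experiments, and the part of the experiment in these values was not tested.

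Many lysosomal genes carry an E-box close to their start. The palindrome CACGTG, the core of the sites that TFEB, TFE3 and MITF bind, was searched in RefSeq promoter windows (GRCm38.p6, 250 bases before to 50 after each start), which were found for 30 of the 35 genes. It reads the same on both strands and was present for 12 of the 30 genes (40.0%), against 8.09% of 27025 genes. The longer forms TCACGTG (on either strand) and TCACGTGA, which contain it, were present for 10 genes (33.3%, against 4.29%) and 6 genes (20.0%, against 1.12%). A match describes the letters only, and no binding was measured here. The 150 bases before the Lamp1 start (chr8:13159011-13159160, plus strand) hold 4 matches, at 61, 45, 28 and 15 bases before it, and those before the Lamp2 start (chrX:38456461-38456610, minus strand) hold none. Both windows lie outside every annotated transcript (GENCODE M21) and are shown as the members with the most matches and a partner without any. Capitals mark the E-box with its flanking T or A.
Lamp1: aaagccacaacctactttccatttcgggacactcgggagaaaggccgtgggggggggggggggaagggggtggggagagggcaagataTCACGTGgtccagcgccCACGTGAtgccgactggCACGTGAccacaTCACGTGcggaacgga
Lamp2: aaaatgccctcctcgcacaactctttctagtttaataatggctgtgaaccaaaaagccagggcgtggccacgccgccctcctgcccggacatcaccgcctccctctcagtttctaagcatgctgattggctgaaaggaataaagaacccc

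Matches with 12 bases around the E-box are given for other well detected or regulatory members, 1 per gene except for Mcoln1, 5′ to 3′ on the strand of the gene. Those of Ctsd (chr7:142387908-142387937, 98 bases before the start, a second match lying 245 bases before it) and Cd164 (chr10:41519401-41519430, 87 bases before) fall in the non-coding part of an exon of another transcript of the gene. That of Atp6v1a (chr16:44139373-44139402, 131 bases before) falls in an intron of a longer transcript. Those of Atp6v0d1 (chr8:105566050-105566079, 3 bases before), Gaa (chr11:119267811-119267840, 140 bases before) and the first of Mcoln1 (chr8:3500436-3500465, 71 bases before) lie outside every GENCODE M21 transcript. The other of Mcoln1 (chr8:3500462-3500491, 45 bases before) falls in the non-coding part of an exon. Distances are those of the first base of CACGTG, so the E-box of Atp6v0d1 spans the RefSeq start.
Ctsd: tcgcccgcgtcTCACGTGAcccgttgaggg
Cd164: cgccgggctgcTCACGTGAccggcgcgcgc
Atp6v1a: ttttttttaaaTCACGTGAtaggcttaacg
Atp6v0d1: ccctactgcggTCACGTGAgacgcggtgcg
Gaa: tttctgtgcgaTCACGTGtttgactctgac
Mcoln1 at 71: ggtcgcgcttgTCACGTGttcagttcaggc
Mcoln1 at 45: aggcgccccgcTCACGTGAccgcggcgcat

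Genes with and without the E-box were detected in similar shares of cells, with medians of 47.8% (12 genes) and 43.8% (18 genes). The ranges overlapped, from 2.16% (Lgmn) to 81.0% (Ctsd) with the E-box and from 3.45% (Mitf) to 90.9% (Cd63) without it.

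Across single cells the lysosomal genes hardly moved together. For each pair a partial Spearman rho was computed across the cells of a set, given genes detected, total counts and plate, and averaged over the 6 sets. The median over the 496 pairs of the 32 genes was 0.013, against 0.002 over all 46933516 pairs of genes past the limit, and set medians ran from -0.016 (L32 HSC-2) to 0.020 (L29 HSC-3). Of the pairs, 57.7% had a mean rho above 0, against 51.1% of all pairs. Pairs within 1 role were no closer than pairs across roles, with medians of 0.009 (89 pairs) and 0.013 (407 pairs), and the 6 pairs of proton pump subunits had a median of 0.004. In counts this sparse a weak rho is a description and not a relation between genes.

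**Figure D4:**
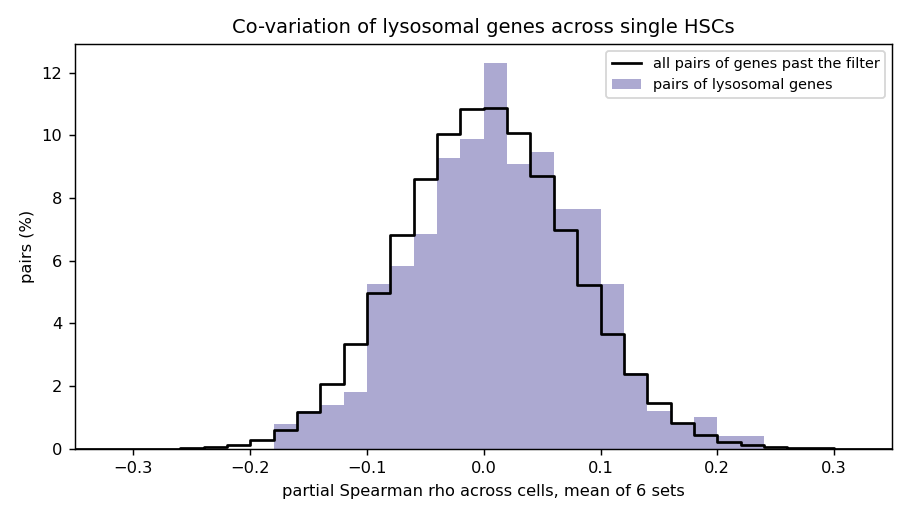
Distribution of the mean partial Spearman rho (horizontal axis) over the 496 pairs of lysosomal genes (filled, percent of pairs) and over all pairs of the 9689 genes past the limit (line). The 2 distributions nearly coincide, with medians of 0.013 and 0.002.

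The pair with the highest rho was Lamp1 with Gaa, at 0.24 ± 0.12 (SD over 6 sets), positive in 6 of 6 sets. Ctsd with Cd63 followed at 0.23, Ctsa with Tpp1 at 0.20, Grn with Atp6v1a at 0.20, Ctsh with Npc2 at 0.19, Lamp1 with Lamp2 at 0.19, Cd63 with Atp6v0d1 at 0.18, Ctsd with Atp6v1h at 0.18, Ctsb with Ctsz at 0.18 and Gaa with Atp6v1a at 0.18. Of these 10 pairs only Lamp1 with Gaa, Cd63 with Atp6v0d1 and Ctsb with Ctsz were positive in 6 of 6 sets. In all, 9 of the 496 pairs were positive in 6 of 6 sets, against 1.63% of all pairs of genes, and 4 were negative in 6 of 6, against 1.7%. The lowest values were -0.18 for Ctsf with Ctss, -0.17 for Ctsf with Hexa and -0.17 for Gusb with Grn. Of these 3, Ctsf with Ctss was negative in 6 of 6 sets.

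When each gene was set against a lysosome score, the mean log level of the other genes of the list, 25 of 32 had a mean rho above 0, and the median was 0.10, against 53.9% of all genes and a median of 0.01. Atp6v1a had the highest mean rho, 0.20 ± 0.14 (SD, n = 6 sets), and was positive in 6 of 6 sets, as were Tpp1 (0.13) and Asah1 (0.09). These 3 of 32 genes compare with 2.24% of all genes, and 0 of 32 were negative in 6 of 6 sets, against 1.58%. Gusb (-0.13), Ctsf (-0.08) and Mcoln1 (-0.08) had the lowest values. Genes with the E-box had a median rho of 0.11 (11 genes) and those without one 0.04 (16 genes), with overlapping ranges. Without L32 HSC-5 the count of positive genes was 8 and without L32 HSC-4 it was 5, with 5 sets having to share the sign. The shares of all genes under that looser rule are not given here, so these counts have no background.

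Among genes outside the list, Mta2, a subunit of the NuRD chromatin remodeller, had the highest rho with the lysosome score, 0.28 ± 0.12 (SD, n = 6 sets). Other high values were those of Wasl (0.27), Tmem115 (0.25), Slc48a1 (0.24), Rabac1 (0.23), Ddx5 (0.22), Tmub1 (0.22), Atp6v1d (0.22) and Spint2 (0.21), each positive in 6 of 6 sets. Slc48a1 encodes a heme transporter of endosomes and lysosomes, and Atp6v1d is a subunit of the proton pump. The lowest were Ncl (-0.23), Larp7 (-0.22), Tex10 (-0.22), mt-Rnr1 (-0.21) and Evi5 (-0.21). Ncl encodes the nucleolar protein nucleolin and is also a gene of the growth score used below. Ncl stood at 1438 CPM in the near-empty wells, mt-Rnr1 at 721 and Evi5 at 58.4. Kept cells of those sets had 1089, 358 and 13.6 CPM. Larp7 and Tex10 went the other way, at 1.62 and 4.86 CPM against 92.6 and 43.6 CPM. Among the positive genes named, only Wasl had the greater value in those wells (45.4 against 35.1 CPM). The part of such RNA in the rho values was not tested. All these genes were chosen for their rho over 9689 genes, so the rho values are a description.

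The lysosomal genes were then set against scores of long-term HSC identity (LT-HSC), S phase, growth (ribosome biogenesis and Myc), oxidative phosphorylation and autophagy. These lists share no gene with the 35. With the LT-HSC score, Ctsb had the highest mean rho, 0.31 ± 0.20 (SD, n = 6 sets), with values of 0.34, 0.03, 0.13, 0.57, 0.44 and 0.20 in the sets. Ctsb was the 1 gene of 32 positive in 6 of 6 sets, against 2.6% of all genes, and 0 of 32 were negative in 6 of 6, against 2.69%. Grn (0.15) and Ctsh (0.14) followed, and Gusb (-0.13), Ctsd (-0.08) and Lamp1 (-0.08) were lowest. In all, 26 of 32 genes had a mean rho above 0, against 50.2% of all genes, and the median was 0.04, against 0.00. With RNA content and mitochondrial share added as covariates, the mean rho of Ctsb was 0.28 and 0 of 32 genes were positive in 6 of 6 sets. In the near-empty wells the 28 genes of the LT-HSC list summed to 11179 CPM, against 9624 to 14171 CPM over the sets of kept cells. Ctsb reached 198 CPM in those wells, and the part of such RNA in the rho was not tested.

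With the growth score the sign was mostly the opposite. A mean rho above 0 was found for 9 of 32 genes, against 53.2% of all genes, and the median was -0.05, against 0.01 over all genes. Psap (-0.20) and Atp6v0d1 (-0.13) were negative in 6 of 6 sets, 2 of 32 genes against 2.44% of all genes, and 0 of 32 were positive in 6 of 6 sets, against 4.86%. Psap, Ctsh (-0.20) and Asah1 (-0.16) had the lowest values of the 32 genes, and Gusb (0.12), Hexa (0.08) and Ctsz (0.06) the highest. With plate as the only covariate, Atp6v0d1 changed sign to 0.03.

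With the oxidative phosphorylation score, Ctsf (-0.24) and Ctsh (-0.19) were negative in 6 of 6 sets, 2 of 32 genes against 2.32% of all genes, and 0 were positive in 6 of 6 sets, against 5.18%. Asah1 (-0.15) was the next lowest, and Gusb (0.11), Ctsd (0.09) and Ctsz (0.08) were highest. With the autophagy score, Psap (0.16 ± 0.10, SD over 6 sets) was the 1 gene positive in 6 of 6 sets, against 2.08% of all genes, and 0 were negative in 6 of 6 sets, against 1.56%. Ctsd (0.14) and Gaa (0.12) followed, and Gusb (-0.12), Glb1 (-0.06) and Ctsc (-0.03) were lowest. With RNA content and mitochondrial share added, the mean rho of Psap was 0.14 and 0 genes were positive in 6 of 6 sets. With the S-phase score 0 genes were positive in 6 of 6 sets, against 3.6% of all genes, and 0 negative, against 1.66%, with Cd164 (0.13), Gaa (0.12) and Lamp1 (0.09) highest and Atp6v1a (-0.12), Neu1 (-0.11) and Asah1 (-0.08) lowest.

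**Figure D5:**
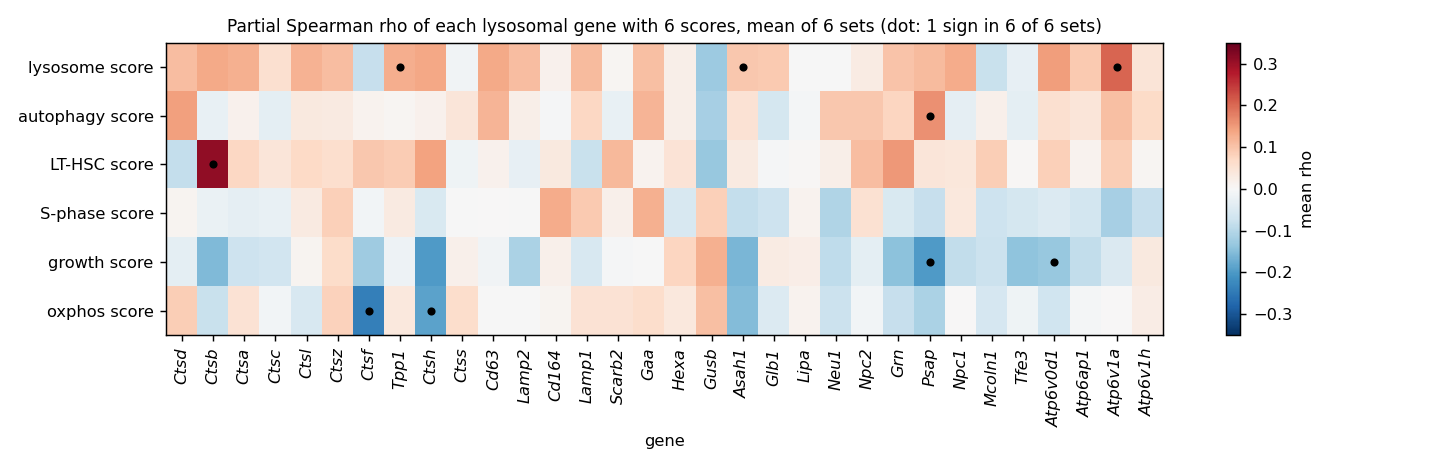
Mean partial Spearman rho over 6 sets (colour) of each of 32 lysosomal genes (columns, in order of role) with 6 scores (rows), with dots where the sign was the same in 6 of 6 sets. Ctsb with the LT-HSC score (0.31) is the strongest cell, and the growth row is mostly below 0 while the lysosome row is mostly above 0.

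The lysosome score as a whole, taken over 32 genes, had a mean rho of 0.18 with the LT-HSC score, with a positive sign in 4 of 6 sets and values from -0.17 (L32 HSC-2) to 0.48 (L29 HSC-3). With the growth score its mean rho was -0.15 (positive in 1 of 6 sets), and with the autophagy score 0.17 (positive in 5 of 6 sets). With the macrophage marker score it was -0.09 (positive in 2 of 6 sets). With the neutrophil and granulocyte progenitor marker score it was 0.23 (positive in 5 of 6 sets), a list of 12 genes of which only Prtn3, a granule protease, was found in at least 10% of cells (81.9%), while Elane and Ctsg reached 10 CPM in 0 cells. The part of Prtn3 in these values was not tested.

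The wider lysosomal system was read from 90 further genes in 5 lists, of which 71 were detected in at least 10% of cells and 13 in at least 50%. Of all 9689 genes detected in at least 10% of cells, 2126 (21.9%) were detected in at least 50%. Among the lysosomal membrane proteins 13 of 18 were detected in at least 10% of cells, led by Laptm5, a hematopoietic membrane protein, at 803 ± 122 CPM (SD, n = 6 sets) and 94.8% of cells, then Laptm4a, Laptm4b and Cln3. Among the hydrolases the count was 21 of 29, led by Gm2a (235 ± 106 CPM), the activator of ganglioside breakdown, then Man2b1, Ppt1 and Ctso. Among the proton pump subunits it was 13 of 14, led by Atp6v0e (264 ± 61.5 CPM), then Atp6v1f, Atp6v1b2 and Atp6v1e1, although Atp6v0e reached 378 CPM in near-empty wells. Of the mannose 6-phosphate sorting genes 8 of 9 were detected in at least 10% of cells, led by the receptor M6pr (442 ± 80.8 CPM, 79.7% of cells), then Gnptg, Nagpa and Gga1. Of the genes of mTORC1 and TFEB control 16 of 20 were, led by Rheb (125 ± 20.0 CPM), then Lamtor5, Flcn and Zkscan3. With the lysosome score 51 of the 71 genes had a mean rho above 0, against 53.9% of all genes. Tmem175, Mcoln2, Atp6v1d and Lamtor2 were positive in 6 of 6 sets (4 of 71, against 2.24% of all genes), and Lamp3 was negative in 6 of 6 (1 of 71, against 1.58%). The median rho was 0.08 for the 13 proton pump subunits and -0.02 for the 16 genes of mTORC1 and TFEB control, 7 of which were above 0.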

How the data were processed

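Single-cell poly(A) RNA libraries were made by template switching with 22 PCR cycles and tagmentation of 700 pg of cDNA, per the labels' protocols. The deposited table gives raw read counts for each gene in every cell. The submitters' processing notes name GSNAP, featureCounts 1.6.2 and the build mm10, and Ensembl release 87 is named in the table's title. No molecular identifiers are described, so PCR copies are counted as separate reads, and exact Clopper-Pearson 95% intervals and limits from a count of 0 (3 counts) cover counting error only. The sources used here do not give how strand and reads with several positions were handled.

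The 92 spike-in rows (11.7% of counts in the mean cell) and the transgene row stayed out of totals. Symbols were found for 49326 of 49671 Ensembl identifiers. CPM was computed over Ensembl genes, divided by the deposited gene length where levels of different genes were compared, and log values were log2(CPM/10 + 1). Wells were meant to hold 1 sorted cell each, although 38 were near-empty by their counts, and no doublet caller was run. No 2 wells had identical counts. Partial Spearman correlations were computed in each set on ranks given genes detected, total counts and plate, and averaged with weights by cells. A gene was left out of a score that contained it. Spread was the squared coefficient of variation relative to a lowess trend (span 30%). The library series were tested with edgeR 4.0.16 (TMM, filterByExpr, quasi-likelihood test) on counts summed per set, with DESeq2 1.42.0 as an alternative (R 4.3.3). Other values were computed in Python 3.11.15 with numpy 2.4.6, pandas 2.3.3, scipy 1.17.1 and statsmodels 0.14.6. The scripts were tested on simulated data. Alternatives changed the detection limit, depth (thinning to 100000 counts), cell filter (3 median absolute deviations, 198 cells), covariates, correlation, normalization, test and sets. Set values are named for genes at 50% of cells or more and for Tfeb, Tfe3, Mitf and Mcoln1. The 10 highest and 3 lowest pairs, 3 genes per end of each score, the 10 highest and 5 lowest other genes with the lysosome score and the 4 most abundant genes of each wider list are named too, and some genes that these rules take are left out here. The members and the 308 genes of the further lists were chosen with earlier results of these data known.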

Additional observations from a re-analysis of the deposited data

Results flagged for a closer look

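Each of the 35 genes was checked for a set far from the other 5, in its share of cells and in its mean CPM, 70 values in all. Chance alone would single out about 1 in 20 of them. Neu1, the lysosomal sialidase, had a mean level of 5.24 CPM in L29 HSC-4 against 43.8 to 64.0 CPM in the other 5 sets, a gap of 0.656 of the whole range, above Dixon's critical value for 6 values. Npc2, the soluble cholesterol carrier, was found in 51.2% of cells of L29 HSC-4 against 72.7% to 84.8% in the other sets, a gap of 0.641 of the range. L29 HSC-4 is also the set with the fewest genes per cell and the highest mitochondrial share, and their part in both values was not tested.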

How the results depend on the processing

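Detection at 1 CPM raised the count of genes in at least 50% of cells from 10 to 16. With plate as the only covariate the median pair rho was 0.035, and the counts of genes positive in 6 of 6 sets were 2 for LT-HSC, 2 for S phase, 1 for growth and 1 for oxidative phosphorylation. In that setting the rho of Atp6v0d1 with growth reversed to 0.031. With RNA content and mitochondrial share added, 0 genes were positive for LT-HSC and 0 for autophagy. With Pearson correlation 2 were positive for LT-HSC and 1 for growth. Leaving out 1 set at a time, with 1 sign needed in all 5 remaining sets, gave 1 to 2 genes for LT-HSC, 0 to 1 for S phase, 0 to 1 for growth, 0 to 1 for oxidative phosphorylation, 1 to 3 for autophagy (3 without L32 HSC-3), 3 to 8 for the lysosome score and 11 to 18 for spread. That rule asks for fewer sets. For the detection, pair, score and spread values of this section, those of all genes in the same settings are not given. A rise in them therefore has no background to be read against. Thinning gave 7 genes for spread. DESeq2 called 4 genes between library series, and every other setting called 0, the HSC code as a replicate block over codes HSC-3 and HSC-4 included (0 of 15721 genes). The causes of these changes were not tested. At 10 CPM the median cell gives 2.8 reads. Tfeb, Mitf and Lgmn were detected in under 10% of cells, and the part of depth in that was not tested.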
